A study of Mus musculus with 9 samples.

Results

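Replacement and spermatid histone variants of the mouse testis were examined, a group of 10 genes named by symbol (H3f3a, H3f3b, H2afx, H2afz, H2afv, H2afj, H1f0, H1fx, H1fnt and Hils1) among the 55401 genes of the deposited count table. The study asked which testis transcripts carry N4-acetylcytidine (ac4C), an acetylated form of the RNA base cytidine, and used acRIP-seq, in which an anti-ac4C antibody on beads recovers RNA that is then sequenced. All 9 libraries came from testes of wild-type (WT) male mice, whose age and strain the labels do not give. There were 3 libraries of poly(A) RNA before precipitation (input, no antibody), 3 of poly(A) RNA recovered with an immunoglobulin control (IgG) and 3 recovered with the anti-ac4C antibody (acRIP). An ac4C-bearing β-globin probe was part of the procedure, and the cDNA was made by Smart-seq2, in which oligo(dT) primes reverse transcription and the product is amplified. The sources used here do not say whether the 3 libraries of a group came from separate animals or precipitations, so each p-value measures the spread between these libraries, which may be technical.

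These 10 variants are encoded by genes outside the large histone clusters, and replacement variants can enter chromatin without DNA replication. H3f3a and H3f3b both encode H3.3, the H3 placed at active genes and on the silenced sex chromosomes of spermatocytes. H2afx encodes H2A.X, which is phosphorylated at DNA breaks and over the sex chromosomes in meiosis, H2afz and H2afv encode the 2 forms of H2A.Z found around transcription start sites, and H2afj encodes H2A.J. H1f0 and H1fx encode linker histones of somatic type, which bind the DNA between nucleosomes, while H1fnt (H1T2) and Hils1 are linker histones of spermatids, the haploid cells in which histones give way to transition proteins and then protamines. All 10 genes had counts in these poly(A) libraries. Most clustered histone genes have mRNAs that end in a stem-loop with no poly(A) tail.

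The genes of a pair encode near-identical or related proteins through coding sequences that differ at many bases, which is what allows reads to be told apart. The annotated coding sequences of H3f3a and H3f3b, 408 bases each, were identical at 76.7% of positions (95 differences), and those of H2afz and H2afv, 384 bases each, at 79.2% (80 differences). The first 60 coding bases of the H3.3 genes differed at 13 positions and coding bases 4 to 63 of the H2A.Z genes at 14, shown 5′ to 3′ with the differing bases in capitals (GENCODE vM21 transcripts, mm10).
H3f3a (chr1:180811867-180811926, minus strand): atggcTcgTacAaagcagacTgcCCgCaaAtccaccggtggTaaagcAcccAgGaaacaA
H3f3b (chr11:116023950-116024009, minus strand): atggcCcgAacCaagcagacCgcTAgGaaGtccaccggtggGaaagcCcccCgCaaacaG
H2afz (chr3:137865133-137865192, plus strand): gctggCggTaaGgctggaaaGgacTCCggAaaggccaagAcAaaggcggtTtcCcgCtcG
H2afv (chr11:6439394-6439453, minus strand): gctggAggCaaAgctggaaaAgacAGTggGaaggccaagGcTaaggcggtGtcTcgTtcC

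The 3′ ends were searched because the libraries were primed on poly(A). A stem-loop of the clustered histone kind was searched on the sense strand of every protein-coding transcript of a gene. The 16-base pattern was GG, 2 free bases, CTT, a free base, T, a free base, AG, 2 free bases, CC. It stood in 1 of the 10 genes, H2afx, against 68.7% of 67 clustered histone genes and 0.621% of 21901 protein-coding genes. The H2afx stem-loop lay 46 bases after the stop codon and 838 bases before the end of the transcript, which also held a poly(A) hexamer, ATTAAA. Any H2afx mRNA ending at the stem-loop without a poly(A) tail would be missed by oligo(dT), so the H2afx level covers poly(A) forms only. A hexamer (AATAAA or ATTAAA) lay in the last 50 bases of 8 of the 10 longest transcripts, against 72.2% of protein-coding genes and 25.4% of clustered histone genes. The longest transcripts of H3f3b and H1fnt held neither form in that window. The windows below show the stem-loop or the hexamer in capitals, with Hist1h1t, a clustered linker histone gene of the testis, for comparison. The Hist1h1t transcript, like that of H2afx, also held a hexamer (AATAAA, 27 bases before its end, not shown). The H1fnt window is the end of its transcript.
H2afx stem-loop (chr9:44335233-44335262, plus strand): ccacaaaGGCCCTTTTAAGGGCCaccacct
Hist1h1t stem-loop (chr13:23696518-23696547, plus strand): acccaaaGGCTCTTTTAAGAGCCacttaca
H2afx hexamer (chr9:44336035-44336064, plus strand): ctaattttATTAAAggatcgtttggttttg
H1fx hexamer (chr6:87980421-87980449, minus strand): tggggcgcAATAAAcggttccaaccttga
Hils1 hexamer (chr11:94968425-94968454, plus strand): caagtgggAATAAAacgcaacttatttcac
H1fnt end (chr15:98255986-98256015, minus strand): tcatctctctttcattgaagcaatttacaa

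Total counts on genes ranged from 22023925 to 31340090 in input, from 14647542 to 18786779 in IgG and from 16025779 to 18639134 in acRIP libraries. Genes with at least 1 count numbered 28552 to 29642 in input, 26204 to 26874 in IgG and 22206 to 22402 in acRIP libraries. Marker sums are given as CPM, counts scaled to a common library total, without TMM factors. The CPM of single variants further below were also scaled with TMM factors. Germ-cell markers (6 of 6 measured) summed to 7304 to 8796 CPM in input, 8117 to 8432 in IgG and 8433 to 9388 in acRIP. Sertoli markers (4) summed to 783 to 817, 645 to 681 and 559 to 595 CPM, with Rhox5 at 0 in every library, and Leydig markers (4) to 917 to 959, 824 to 833 and 744 to 764 CPM. Peritubular markers (2) summed to 36.4 to 36.9, 47.9 to 51.0 and 42.8 to 51.9 CPM. Macrophage markers (3) summed to 12.0 to 13.4 CPM in input and 10.9 to 15.0 in IgG but to 1.07 to 2.62 in acRIP, erythrocyte markers (3) to 19.4 to 22.5, 14.3 to 16.4 and 1.82 to 2.25, and epididymis markers (4, with Lcn5 at 0 in every library) to 7.98 to 8.54, 7.65 to 8.23 and 0.749 to 1.19. The part of these marker shifts in the results below was not tested.

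Levels were compared between genes per length, as FPKM, counts divided by gene length and library total. In input, the spermatid linker histones and H3.3 were the most abundant variants. Hils1 stood at 1485 ± 9.16 FPKM (SD, n = 3), a level that 18 genes of the table reached, itself included. H1fnt followed at 449 ± 11.1, H3f3b at 317 ± 3.16 and H3f3a at 133 ± 1.80 FPKM. The H2A variants lay lower, with H2afz at 42.2 ± 2.92, H2afv at 39.0 ± 1.01 and H2afx at 33.4 ± 0.510 FPKM. H2afj (2.82 ± 0.867), H1f0 (2.40 ± 0.184) and H1fx (1.21 ± 0.355) were the lowest, with 22 to 219 counts per input library. Among neighbours in this order, the library ranges overlapped for H2afz with H2afv and for H2afj with H1f0 and were separate for the rest. In bulk testis RNA, fewer cells of a type and less RNA per cell cannot be told apart.

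The same order held for the upper ranks of the recovered RNA, while the lowest ranks changed. In IgG, Hils1 (1392 ± 39.7 FPKM) stood above H1fnt (306 ± 9.99) and H3f3b (299 ± 3.65), whose ranges now overlapped. H1fx moved from the 10th place in input to the 8th, at 12.7 ± 1.36 FPKM in IgG and 11.7 ± 2.28 in acRIP, and in both groups its libraries lay above every library of H1f0 and H2afj. H1f0 was 9th in IgG (5.75 ± 0.371) and H2afj 10th (3.03 ± 0.661), and in acRIP their ranges overlapped (3.78 ± 0.376 and 3.46 ± 0.237). The 10 genes took 0.348% ± 0.00375 of all counts in input, 0.307% ± 0.00288 in IgG and 0.276% ± 0.00146 in acRIP, with no overlap between groups. Hils1 and H1fnt together took 0.187% of counts in input, 0.160% in IgG and 0.146% in acRIP, and the H3.3 genes 0.141%, 0.123% and 0.109%.

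**Figure D1:**
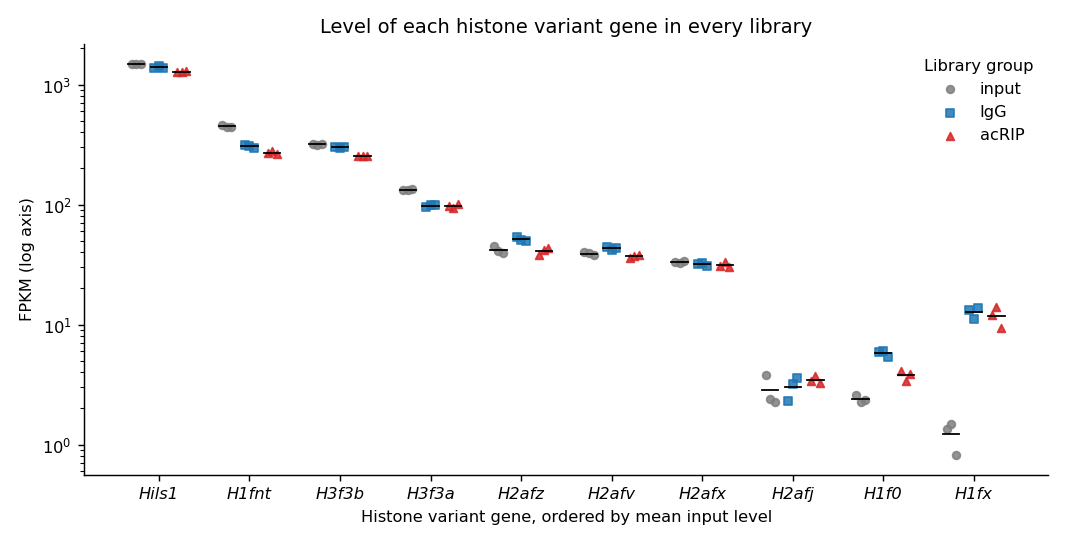
FPKM on a log axis of each variant gene in each of the 9 libraries (points, by group) with the group means (black lines), genes ordered by input level. Hils1 is highest in all groups, at 1271 FPKM or more, and H1fx is lowest in input (0.815 to 1.49 FPKM) but at 9.36 to 13.9 FPKM in the IgG and acRIP libraries.

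The 3 groups were compared with edgeR over 22510 genes, and a gene was called at an adjusted p under 0.05 with a fold change over 2. All 10 variants passed the filter on low counts. The anti-ac4C antibody gave no variant a called increase over IgG. In acRIP over IgG, edgeR called 0 of the 10 genes, against 32.4% of all genes tested (11.5% higher and 20.9% lower). At an unadjusted p under 0.05, 6 of the 10 differed, all 6 lower in acRIP. These 6 also passed the adjusted p, as did 64.1% of all genes in either direction. DESeq2 and limma on log2(FPKM + 1) also called 0. In acRIP over input 1 of the 10 was called, H1fx, higher, against 40.6% of all genes (17.7% higher and 22.9% lower), and in IgG over input 2 were called, H1fx and H1f0, both higher, against 20.7% (13.5% higher and 7.22% lower). None was called higher in acRIP than in both controls, by edgeR or by DESeq2, against 7.88% of all genes, and by edgeR with TMM no variant was higher in acRIP than in IgG at an unadjusted p under 0.05.

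The changes were small for most variants. In acRIP over IgG, 9 of the 10 differed by less than 1.3-fold, in acRIP over input 7 and in IgG over input 6. The median log2 fold change of the 10 was -0.10 in acRIP over IgG, -0.0014 in acRIP over input and 0.05 in IgG over input, beside -0.09, -0.10 and -0.01 over all genes tested. At the adjusted p alone, 6 of the 10 passed in acRIP over IgG (64.1% of all genes), 6 in acRIP over input (72.3%) and 6 in IgG over input (51.9%), and the libraries of the compared groups did not overlap for 6 (65.6%), 6 (75.0%) and 8 (58.9%). The 6 of acRIP over IgG became 4 with DESeq2 and 4 with upper quartile scaling, where H3f3a also passed, as higher in acRIP. The acRIP and IgG comparisons with input share the same input libraries.

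**Figure D2:**
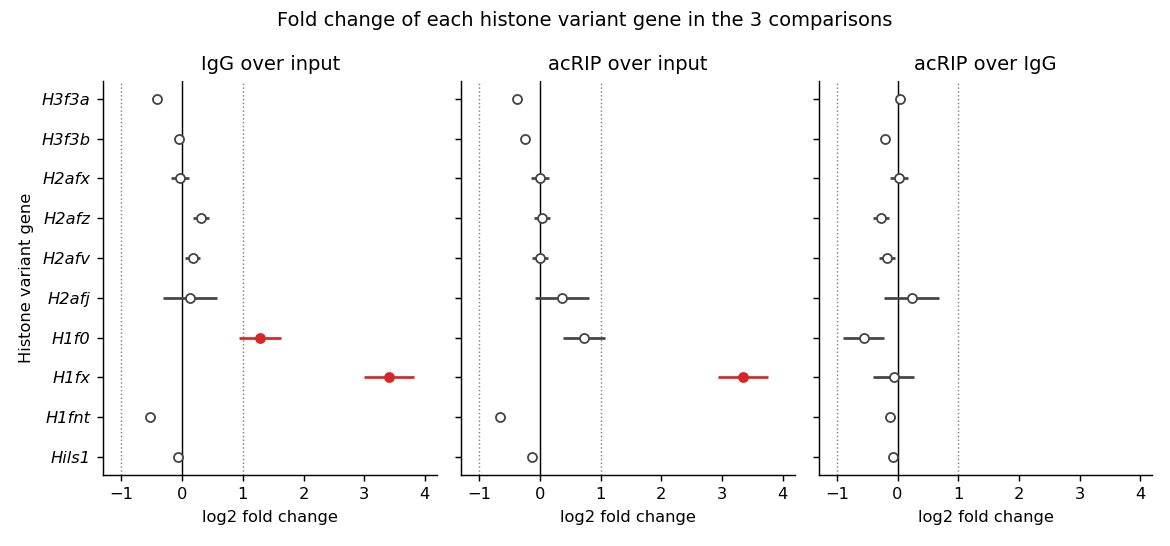
Log2 fold change (edgeR) of each variant gene in the 3 comparisons, with bars for the 95% interval (1.96 SE), dotted lines at a 2-fold change and filled red points for called genes. H1fx lies at 3.40 in IgG over input and 3.34 in acRIP over input, and no gene is filled in acRIP over IgG.

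Of the H3.3 genes, H3f3b stood above H3f3a in every library. H3f3a was lower than input in both recovered groups, and H3f3b in acRIP. H3f3a (chr1:180800832-180813943, minus strand, 4 exons) held 455, 451 and 461 CPM in input, 330, 346 and 347 in IgG and 354, 341 and 362 in acRIP libraries 1 to 3. The recovered libraries all lay below the input libraries and overlapped each other. H3f3a was 1.33-fold lower in IgG than in input (log2 fold change -0.42, SE 0.04, adjusted p = 5.4e-11) and 1.29-fold lower in acRIP than in input (-0.37, SE 0.04, adjusted p = 4.84e-10), both inside the 2-fold limit. Its difference between acRIP and IgG was 0.05 (95% interval -0.03 to 0.12, adjusted p = 0.299).

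H3f3b (chr11:116021912-116027962, minus strand, 6 exons) held 934, 910 and 917 CPM in input, 894, 875 and 896 in IgG and 776, 782 and 765 in acRIP. For this gene the acRIP libraries were the low group, below all of IgG and input. It was 1.15-fold lower in acRIP than in IgG (log2 fold change -0.20, SE 0.03, adjusted p = 3.18e-06) and 1.19-fold lower than in input (-0.25, SE 0.03, adjusted p = 2.94e-08), again inside the 2-fold limit. IgG and input differed by -0.05 (adjusted p = 0.176), and their libraries did not overlap. This difference passed as lower in IgG with upper quartile scaling (adjusted p = 0.00023), with total counts in place of TMM (0.0314) and with limma on FPKM (up to 0.022).

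Uniquely mapped reads undercount genes with near-identical copies. Stretches of at least 150 bases at 95% identity or more elsewhere in the genome covered 36.5% of the H3f3a transcript (18 loci) and 43.8% of the H3f3b transcript (2 loci). The processed pseudogene H3f3c held 1639 to 2445 counts in input and was lower in IgG than in input (log2 fold change -0.60, SE 0.07, adjusted p = 2.11e-08) and in acRIP than in input (-0.46, SE 0.07, adjusted p = 1.9e-06), and how H3f3a reads were split between them was not tested. The antisense gene H3f3aos, which overlaps H3f3a, held 24 to 172 counts and was higher in IgG than in input (2.26, SE 0.30, adjusted p = 8.77e-08). Since the use of strand in counting is not stated, how reads on exon bases shared by a gene and its antisense partner were counted is unknown.

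None of the H2A variants was called, although both H2A.Z genes passed the adjusted p in IgG over input and in acRIP over IgG. H2afx (chr9:44334694-44336077, plus strand, 1 exon) held 45.3, 44.3 and 45.6 CPM in input, 44.2, 45.2 and 42.9 in IgG and 43.9, 47.9 and 42.9 in acRIP. All 3 groups overlapped. The log2 differences were -0.03 (95% interval -0.18 to 0.12) in IgG over input, -0.0034 (-0.15 to 0.14) in acRIP over input and 0.03 (-0.12 to 0.18) in acRIP over IgG, and none passed the adjusted p. The transcript of H2afx was 33.5% cytidine, a share above that of 99.1% of the 15526 protein-coding genes tested.

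H2afz (chr3:137864487-137866922, plus strand, 5 exons), the first of the H2A.Z genes, held 79.1, 71.5 and 68.7 CPM in input, 94.9, 89.6 and 88.0 in IgG and 68.9, 78.0 and 79.1 in acRIP. The IgG libraries were the high group, and input and acRIP overlapped. H2afz was 1.24-fold higher in IgG than in input (log2 fold change 0.31, SE 0.07, adjusted p = 0.000182) and 1.20-fold lower in acRIP than in IgG (-0.27, SE 0.07, adjusted p = 0.000863), inside the 2-fold limit. Copies covered 90.9% of its transcript (2 other loci, with identity up to 99.9%), the highest such share of the 10 genes, and unique mapping leaves its level uncertain.

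H2afv (chr11:6427229-6444443, minus strand, 5 exons), with no such copy, held 64.1, 62.2 and 60.4 CPM in input, 72.3, 67.4 and 70.7 in IgG and 59.8, 63.6 and 63.4 in acRIP. Its IgG libraries were again the high group. It was 1.13-fold higher in IgG than in input (log2 fold change 0.17, SE 0.06, adjusted p = 0.0246) and 1.13-fold lower in acRIP than in IgG (-0.17, SE 0.07, adjusted p = 0.0228). Neither pass held throughout: over 19 alternatives (other scalings, filters and tools and each library left out, without glmTreat) the adjusted p ran from 0.0124 to 0.345 in IgG over input, missing 0.05 in 6, and from 0.00332 to 0.104 in acRIP over IgG, missing it in 7. In acRIP over input the difference was 0.0006 (95% interval -0.13 to 0.13).

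H2afj (chr6:136808244-136810074, plus strand, 1 exon) held 6.85, 4.29 and 3.99 CPM in input, 4.21, 5.78 and 6.61 in IgG and 6.44, 7.09 and 6.09 in acRIP. Its groups overlapped in every comparison, and input library 1 was the high library of its group. With all 9 libraries no difference passed, and the intervals were wide, from -0.08 to 0.81 on the log2 scale in acRIP over input and from -0.22 to 0.69 in acRIP over IgG. Without input library 1, the log2 fold change in acRIP over input was 0.66 and passed the adjusted p (0.0211).

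The somatic linker histones H1fx and H1f0 were the variants called in these comparisons. H1fx (chr6:87980421-87981637, minus strand, 1 exon), with 22 to 51 counts per input library, held 1.60, 1.77 and 0.964 CPM in input, 16.0, 13.6 and 16.8 in IgG and 15.1, 17.6 and 11.6 in acRIP. Every IgG and acRIP library lay above every input library, and the IgG and acRIP libraries overlapped. H1fx rose 10.6-fold in IgG over input (log2 fold change 3.40, SE 0.21, adjusted p = 2.36e-15) and 10.1-fold in acRIP over input (3.34, SE 0.21, adjusted p = 2.83e-15). Between acRIP and IgG it differed by -0.06 (95% interval -0.40 to 0.27, adjusted p = 0.766).

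H1f0 (chr15:79028450-79030504, plus strand, 1 exon) held 5.25, 4.52 and 4.69 CPM in input, 12.0, 12.4 and 11.0 in IgG and 8.69, 7.21 and 8.16 in acRIP. The 3 groups were separate, with acRIP between input and IgG. H1f0 rose 2.43-fold in IgG over input (log2 fold change 1.28, SE 0.17, adjusted p = 1.71e-07). It was 1.66-fold higher in acRIP than in input (0.73, SE 0.18, adjusted p = 0.000546) and 1.47-fold lower in acRIP than in IgG (-0.56, SE 0.17, adjusted p = 0.00583), both inside the 2-fold limit. The IgG call rested on the way the fold limit was set: tested against a fold change of 2 itself (glmTreat), H1f0 gave an adjusted p of 0.128, and on the log2(FPKM + 1) scale its difference was 0.99.

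**Figure D3:**
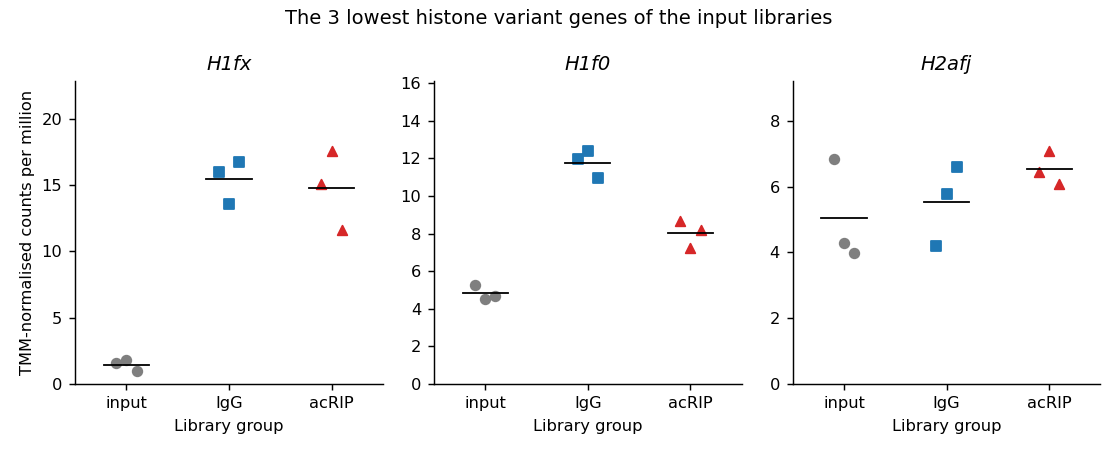
TMM-normalised CPM of the 3 lowest variants of input in each library (points) with group means (black lines), each panel on its own linear axis from 0. H1fx runs from 0.964 to 1.77 in input and from 11.6 to 17.6 in the other groups, H1f0 separates all 3 groups, and H2afj overlaps in all.

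H1fx and H1f0 each have an antisense neighbour and few input counts. The antisense gene Gm5577 shares 213 exon bases with H1fx and held 24 to 57 counts in input, 16 to 64 in IgG and 16 to 39 in acRIP, with a log2 fold change of 0.46 in IgG over input (SE 0.45, adjusted p = 0.401). Gm49544 shares 163 exon bases with H1f0, held 14 to 24 counts in input, 46 to 74 in IgG and 72 to 90 in acRIP, and rose in IgG over input (2.21, SE 0.32, adjusted p = 4.62e-07) and in acRIP over input (2.62, SE 0.31, adjusted p = 9.19e-09). Their part in the H1fx and H1f0 values was not tested.

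In base composition H1fx stood at the edge of the transcriptome. Its transcript was 39.4% cytidine and 71.3% G or C, and 5 of the 15526 protein-coding genes tested, itself included, had a cytidine share as high. Those 5 had a median log2 fold change of 1.14 in IgG over input, of 1.31 in acRIP over input and of -0.19 in acRIP over IgG. Of them, 60% were called higher in each comparison with input and 0% in acRIP over IgG. H1f0, at 24.7% cytidine, was near the middle of these genes (above 51.6% of them), and H2afx, at 33.5%, differed from input by -0.03 in IgG. Across these genes, which share the same libraries and are not independent, cytidine share and log2 fold change had a Pearson r of 0.09 (Spearman 0.09) in IgG over input, 0.04 (Spearman 0.09) in acRIP over input and 0.00098 (Spearman 0.05) in acRIP over IgG. For the share of G or C, r was 0.12 (Spearman 0.13), 0.07 (Spearman 0.12) and 0.01 (Spearman 0.04) in the same order. H2afx, H2afj, H1fnt and Hils1, which were not called in any comparison, have 1 exon as H1fx and H1f0 do. Of 569 single-exon protein-coding genes tested, 17.8% were called higher in IgG over input and 20.2% in acRIP over input. Over all 15526 protein-coding genes these shares were 13.1% and 16.0%. The part of base composition and exon number in the H1fx and H1f0 values was not tested.

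The spermatid linker histones were abundant in all 9 libraries, and neither was called in any comparison. H1fnt (chr15:98255986-98257293, minus strand, 1 exon) held 593, 566 and 562 CPM in input, 407, 403 and 385 in IgG and 364, 379 and 354 in acRIP. The groups were separate, in the order input, IgG, acRIP. H1fnt was 1.44-fold lower in IgG than in input (log2 fold change -0.53, SE 0.04, adjusted p = 2.19e-13) and 1.57-fold lower in acRIP than in input (-0.65, SE 0.04, adjusted p = 7.91e-16). It was 1.09-fold lower in acRIP than in IgG (-0.12, SE 0.04, adjusted p = 0.00726), and all 3 differences were inside the 2-fold limit. The last of these missed 0.05 in 2 of 19 alternatives (adjusted p up to 0.111).

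Hils1 (chr11:94967593-94968456, plus strand, 1 exon) held 1266, 1244 and 1246 CPM in input, 1170, 1236 and 1192 in IgG and 1136, 1143 and 1142 in acRIP. The order of the groups was that of H1fnt, with smaller steps. It was 1.10-fold lower in acRIP than in input (log2 fold change -0.13, SE 0.03, adjusted p = 0.00025) and 1.05-fold lower than in IgG (-0.07, SE 0.03, adjusted p = 0.0391). IgG over input was -0.06 (adjusted p = 0.0916), and these libraries did not overlap. That difference passed as lower in IgG with DESeq2 (adjusted p = 0.0253), upper quartile scaling (5.41e-05), total counts, limma on FPKM or no filterByExpr. The pass of acRIP over IgG was lost in 10 of 19 alternatives, in which the adjusted p ran from 0.00104 to 0.523. Neither transcript had a copy of 150 bases at 95% identity elsewhere. Hils1 lies inside Sgca, a sarcoglycan gene of the other strand, and shares no exon base with it.

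The ratio of paired genes within a library needs no scaling between libraries. H3f3a over H3f3b, in counts, was 0.487, 0.495 and 0.502 in input, 0.369, 0.396 and 0.387 in IgG and 0.456, 0.436 and 0.474 in acRIP. No groups overlapped, and IgG was lowest. H1fnt over Hils1 was 0.468, 0.455 and 0.451 in input, 0.348, 0.326 and 0.323 in IgG and 0.320, 0.332 and 0.310 in acRIP, so IgG and acRIP overlapped below input. H2afz over H2afv was 1.23, 1.15 and 1.14 in input, 1.31, 1.33 and 1.24 in IgG and 1.15, 1.23 and 1.25 in acRIP, so IgG lay above input and acRIP overlapped both.

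Between-group differences in these ratios were tested by exact permutation over libraries, two-sided, in 9 tests. With 3 libraries against 3 the smallest p is 0.10, so none can pass 0.05. That smallest p of 0.10 (adjusted over the 9 tests, 0.15) was reached for H3f3a over H3f3b in all 3 comparisons, with mean log2 differences of -0.37 in IgG over input, -0.12 in acRIP over input and 0.25 in acRIP over IgG. It was reached for H1fnt over Hils1 in IgG over input (-0.46) and acRIP over input (-0.51), and for H2afz over H2afv in IgG over input (0.14). The other exact p-values were 0.40 for H1fnt over Hils1 in acRIP over IgG (-0.05), 0.20 for H2afz over H2afv in acRIP over IgG (-0.10) and 0.40 in acRIP over input (0.04).

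**Figure D4:**
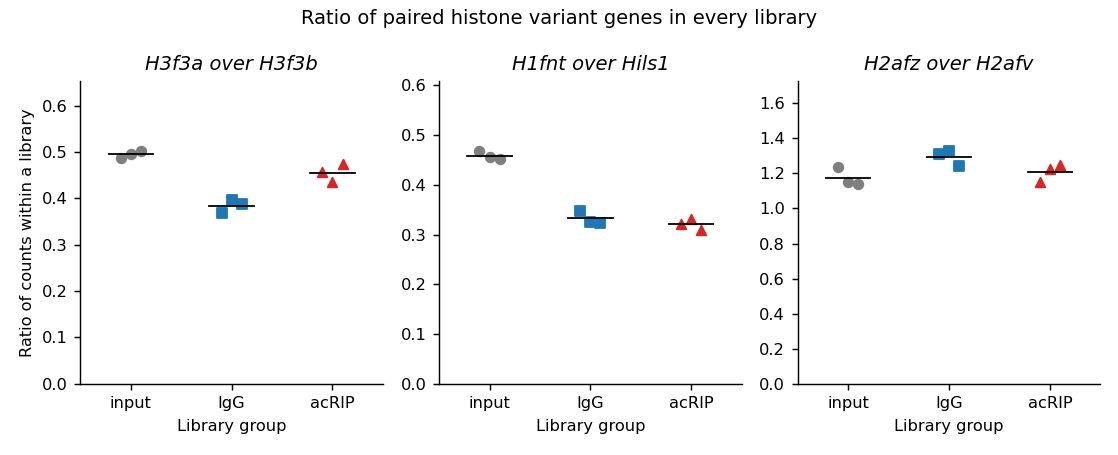
Ratio of counts of paired variant genes in each library (points) with group means (black lines), on linear axes from 0. H3f3a over H3f3b is 0.487 to 0.502 in input and 0.369 to 0.396 in IgG, and H1fnt over Hils1 is 0.451 or more in input and 0.348 or less in the other groups.

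The genes whose pattern over the 9 libraries was most like that of an abundant variant were found by the root mean square difference of centred log2 CPM. For H3f3a they were Gdpd1 (0.03), Slc22a16 (0.04) and Bcl2l14 (0.04), for H3f3b Shcbp1l, Sept12 and Lrrc28 (0.03 each), for H1fnt 1700001O22Rik, Pmfbp1 and Itm2b (0.04 each), and for Hils1 Arf1, Mzt2 and Gm128 (0.03 each). Among the variants themselves, the nearest pattern to H3f3a was that of H1fnt (0.13), and the nearest to H3f3b was that of Hils1 (0.06).

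Genes that handle these histones were read from the same fit. Over all genes tested, 13.5% were called higher and 7.22% lower in IgG over input, 17.7% and 22.9% in acRIP over input, and 11.5% and 20.9% in acRIP over IgG, with median log2 fold changes of -0.01, -0.10 and -0.09. The H3.3 chaperones (8 genes, all tested) place H3.3 through the HIRA complex or through ATRX with DAXX. In IgG over input 4 of them rose, Hira (2.44-fold, adjusted p = 0.0479, at 6 to 27 counts in input), Ubn1 (2.25-fold), Ubn2 (2.56-fold) and Atrx (3.77-fold), with a median log2 fold change of 0.78 over the list, beside 13.5% and -0.01 over all genes. In acRIP over input Ubn1 (2.14-fold), Ubn2 (2.64-fold) and Atrx (2.59-fold) rose, with a median of 0.86. In acRIP over IgG Cabin1 rose 2.23-fold (log2 fold change 1.16, SE 0.15, adjusted p = 1.14e-07), Hira fell 3.29-fold (-1.72, SE 0.58, adjusted p = 0.0112), and the median was -0.07.

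Of 20 tested genes of H2A.Z exchange, subunits of the SRCAP, EP400 and INO80 complexes and Anp32e, 4 rose in IgG over input (Srcap, Epc2, Actr5 and Mbtd1, from 2.08-fold to 3.02-fold; median log2 fold change 0.07). In acRIP over input Epc2 and Actr5 rose, by 3.69-fold and 4.33-fold, and Ruvbl1, Actl6a and Ing3 fell, by 2.58-fold to 3.16-fold (median 0.06). In acRIP over IgG 2 were called, Ruvbl1 and Mbtd1, which fell 2.73-fold and 2.27-fold (median -0.32), and the highest value was that of Actr5 (0.52).

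Of 14 tested genes of H2A.X signalling, which phosphorylate H2A.X or act on the phosphorylated form, Topbp1, Rnf8 and Baz1b rose in IgG over input, by 2.15-fold to 2.36-fold (median log2 fold change 0.28). In acRIP over input Topbp1 (2.17-fold) and Rnf8 (2.78-fold) rose and Prkdc (6.75-fold) and Hormad2 (2.56-fold) fell (median -0.04). In acRIP over IgG 3 were called, Prkdc, Hormad2 and Baz1b, which fell 5.66-fold, 2.80-fold and 2.25-fold (median -0.07), and Atm, a kinase of H2A.X, had the highest value at 0.72.

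Among 11 genes of histone removal in spermatids, Rnf8, which the preceding list also holds, and Psme4, the proteasome activator that binds acetylated histones, rose in IgG over input (2.15-fold and 2.74-fold) and in acRIP over input (2.78-fold and 3.07-fold). In acRIP over IgG these genes lay between -0.62 (Chd5) and 0.48 (Tnp1, a transition protein), inside the 2-fold limit. Among 11 general histone chaperones, Set rose in IgG over input (2.08-fold) and in acRIP over input (2.07-fold), and Supt16, a subunit of the FACT complex, fell in acRIP over input (3.61-fold) and in acRIP over IgG (2.10-fold). The highest value in acRIP over IgG was that of Nap1l1 (0.47, SE 0.07, adjusted p = 3.49e-07), inside the 2-fold limit. The medians of this list were 0.02 in IgG over input, -0.04 in acRIP over input and -0.18 in acRIP over IgG.

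Further histone variants, of which 20 of 28 were tested, included transcripts with counts in input and IgG and none in acRIP. Over all genes too, fewer held a count in an acRIP library (22206 to 22402) than in an IgG library (26204 to 26874). Hist1h1t, the linker histone H1t of spermatocytes, held 32 to 81 counts in input, 16 to 46 in IgG and 0 in all 3 acRIP libraries. It fell at least 9.85-fold against IgG (adjusted p = 1.11e-07) and at least 10.2-fold against input (adjusted p = 3.98e-08), each bound being set at 3 counts per acRIP library. H2afy2 and Hist1h2aa also fell in both comparisons, H2al1a rose in acRIP over input, and Hist1h2ba and H2al1i fell in IgG over input. The highest value in acRIP over IgG was that of H2al1c, 0.89 with an SE of 0.75 and an adjusted p of 0.301, and the list's medians were 0.40 in acRIP over IgG, 0.23 in acRIP over input and -0.02 in IgG over input.

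Clustered histone genes, of which 22 of 67 were tested, held the genes of these lists that were called higher in acRIP than in both controls. There were 4 of the 22, Hist1h2bb, Hist1h4d, Hist2h3c2 and Hist2h4, by edgeR and 4 by DESeq2, beside 7.88% of all genes. Over IgG, 5 rose in acRIP, these 4 and Hist1h4h, and 4 fell, Hist1h1d, Hist1h2be, Hist3h2ba and Hist4h4 (median log2 fold change 0.01). In acRIP over input the same 4 rose and 5 fell, those 4 and Hist2h2ac (median -0.25), and in IgG over input Hist1h2be and Hist2h4 rose and Hist1h4h fell (median -0.18). Hist2h4 held 0 counts in every input library, 0 to 6 in IgG and 82 to 93 in acRIP, at least 44.2-fold higher in acRIP than in input against 3 counts per library. Hist2h3c2 held 16 to 44, 16 to 36 and 70 to 110 counts and rose 3.28-fold over IgG and 4.10-fold over input, while Hist1h2bb and Hist1h4d had 34 counts or fewer in any library. Hist1h2be was at 0 in acRIP, against 12 to 22 counts in IgG. Near-identical copies of the clustered histone genes were not searched for, so the effect of unique mapping on their values is uncertain.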

How the data were processed

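The deposited values are raw counts per gene, made by the authors from reads that mapped once. The submitters' processing notes name Trim Galore 0.6.7, STAR 2.7.10a, featureCounts 2.0.2 and mm10, while the gene annotation, strand use and treatment of mates are not given in the sources used here. Among genes with 1 to 20 counts, 81.9% to 84.3% of counts were even, so fragments are fewer than counts. Libraries were grouped by their labels, and 0 columns of the table were left out. Between replicate libraries the mean chi-square per gene was 3.52 to 5.40 on raw counts, and each library counted once. Counting both mates of a fragment raises this value, so its excess over sampling noise is uncertain.

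Gene identifiers were named through GENCODE vM21 (55141 of 55401 matched). Counts were fitted with edgeR 4.0.16 (R 4.3.3; filterByExpr, TMM, quasi-likelihood test, group means from all 9 libraries, Benjamini-Hochberg over the 22510 genes), and intervals are 1.96 SE. FPKM was computed from counts, the table's gene lengths and total counts. DESeq2 1.42.0 and limma 3.58.1 served as alternatives, and exact tests used scipy 1.17.1. Copies were found with blastn 2.17.0 on the genome. The fit was tested on simulated data.

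The variants and the gene lists were chosen with earlier results of these data known. Named from each list were genes called higher in acRIP than in both controls and otherwise the highest and the lowest in acRIP over IgG. Other genes named from the lists were chosen after their values were seen, to account for small counts of calls. Genes of like pattern are the 3 nearest of each of 4 abundant variants. Bounds set at 3 counts cover counting error only.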

Additional observations from a re-analysis of the deposited data

How the results depend on the processing

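The count of variants called stayed at 0 in acRIP over IgG, 1 in acRIP over input and 0 higher in acRIP than in both controls under every alternative run (other normalizations, other filters on low counts, DESeq2, limma on FPKM, halved counts, 6 libraries at a time, each library left out). In IgG over input it stayed at 2 except at 1 under glmTreat against a fold change of 2 and 1 with limma on log2(FPKM + 1), both times without H1f0, whose log2 fold change was then 1.28 and 0.99. Leaving out each library in turn kept the 4 counts at 0, 1, 2 and 0.

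Of 600 recomputed log2 fold changes, 565 kept direction and call, and the 33 that turned sign were of variants near 0. With total counts in place of TMM they were H3f3a -0.0033 and H2afx -0.023 in acRIP over IgG, and H2afz -0.038 and H2afv -0.080 in acRIP over input. With limma on log2(FPKM + 1) these 4 were -0.0020, -0.023, -0.036 and -0.077, and with log2(FPKM + 0.1) -0.0020, -0.024, -0.036 and -0.079. With upper quartile scaling H2afz (-0.0066) and H2afv (-0.048) turned in acRIP over input. H2afx in acRIP over input turned to 0.014 with DESeq2, 0.0060 with at least 10 counts in every library, 0.0035 with the 6 libraries compared and 0.0057 with halved counts. Leaving out single libraries gave ranges of -0.043 to 0.037 (H2afx) and -0.014 to 0.038 (H2afv) in acRIP over input, -0.016 to 0.064 (H2afx) and -0.21 to 0.087 (H1fx, turned without acRIP replicate 3) in acRIP over IgG, and -0.010 to 0.43 (H2afj) in IgG over input. The cause was not tested. FPKM moved by more than 1 SD in 7 of 30 group means with TMM library sizes.

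At the adjusted p alone, the 6 variants of acRIP over IgG became 4 with upper quartile scaling, DESeq2, no filterByExpr or the 6 libraries compared, and 4 to 6 with a library left out (4 without acRIP replicate 1 or 3). Hils1 lost its pass against IgG in 10 of 19 alternatives, among them those without input replicate 1 or 2, IgG replicate 2 or any acRIP replicate (adjusted p up to 0.235 there). H2afv lost it in 7, among them without IgG replicate 1 or 3 or acRIP replicate 1 (up to 0.103), and H1fnt in 2, one being without acRIP replicate 3 (0.0512). In IgG over input H2afv missed it in 6, among them without input replicate 2 or 3 or IgG replicate 1 (up to 0.0812). The 6 variants of that comparison became 7 with DESeq2, total counts or upper quartile scaling and 8 with limma on FPKM. There Hils1 passed as lower in IgG, and so did H3f3b except with DESeq2. Hils1 also passed without filterByExpr. In acRIP over input the 6 became 7 without input replicate 1, where H2afj passed as higher (adjusted p = 0.0211).

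The groups share replicate numbers, but same-numbered libraries did not deviate together (correlations -0.0066 to 0.035), so the numbers were not taken as pairs. With the replicate block the variants called stayed at 0, 1, 2 and 0, and the genes called in all were 7196 against 7291 in acRIP over IgG, 8988 against 9129 in acRIP over input and 4453 against 4654 in IgG over input. Depth limits H1fx, H1f0 and H2afj, with 22 to 219 counts per input library, and near-identical copies limit H2afz.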
